A study of Homo sapiens with 6 samples.

Results

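The genes described here encode receptors of the epidermal growth factor (EGF) family, the ligands that bind them and inhibitors of receptor signaling, 10 genes in all. They were chosen by symbol from the 19470 gene rows of the deposited count table, and all 10 passed the filter on low counts that left 13066 genes for testing. The receptors were EGFR, ERBB2 and ERBB3, the ligands were AREG, EREG, HBEGF, TGFA and BTC, and the inhibitors were ERRFI1 and LRIG1. RNA was sequenced from HCCC9810, an established human cholangiocarcinoma (CCA) cell line without an introduced genotype, after 24 h of culture with 20 μM isolinderalactone (ILL), a plant sesquiterpenoid lactone, or with the DMSO vehicle as control. There were 3 libraries per group, so each result compares cells of a single line at a single dose and time. The labels do not say whether the libraries of a group came from separate cultures, and p-values therefore measure the spread between these libraries, which may be technical.

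Ligands of this family are made as membrane-bound precursors and are released by proteases at the cell surface. A bound ligand lets receptors pair, and the paired kinases phosphorylate each other and start the RAS-ERK and PI3K-AKT pathways. ERBB2 binds no known ligand of its own, and ERBB3 has a weak kinase and signals through its partners. In the bile duct, EGF receptor signaling is known to drive growth and repair of cholangiocytes, and it is often active in CCA.

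Total counts ranged from 34282764 to 37758569 per library. The 10 most counted genes took 5.20% to 5.45% of the counts in control libraries and 8.12% to 8.25% with ILL, and library sizes were adjusted for this by the TMM method before CPM, counts scaled to a common library size, were computed. The epithelial label was checked with biliary markers, whose summed level was 5079 to 5203 FPKM in control libraries and 4585 to 4835 FPKM with ILL. Summed levels were 1.68 to 2.11 FPKM in controls and 2.17 to 2.79 FPKM with ILL for fibroblast markers, 0.191 to 0.315 FPKM and 0.283 to 0.342 FPKM for endothelial markers, and 9.37 to 11.4 FPKM and 8.84 to 14.9 FPKM for hepatocyte markers, of which CYP3A4 was at 0. Immune markers summed to 22.6 to 24.9 FPKM in controls and 64.9 to 67.7 FPKM with ILL, nearly all of it from CD68, which is also a lysosomal protein of other cells, while PTPRC and CD3E had at most 9 and 3 counts in any library. The part of these markers in the results below was not tested.

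Promoter sequences are shown for the inhibitor and the ligand with the largest increases, ERRFI1 and HBEGF, and for AREG and EREG, neighbors on chromosome 4 whose fold changes were close to each other. Each is the 250 bases before the gene start in RefSeq on GRCh38.p14, written 5′ to 3′ on the strand of the gene, and capitals mark matches to any of 5 motifs searched on both strands. The windows are chr1:8026310-8026559 on the minus strand for ERRFI1, chr5:140346604-140346853 on the minus strand for HBEGF, chr4:74444886-74445135 on the plus strand for AREG, and chr4:74364895-74365144 on the plus strand for EREG. The last bases of the HBEGF window lie within the HBEGF gene as GENCODE draws it.
ERRFI1: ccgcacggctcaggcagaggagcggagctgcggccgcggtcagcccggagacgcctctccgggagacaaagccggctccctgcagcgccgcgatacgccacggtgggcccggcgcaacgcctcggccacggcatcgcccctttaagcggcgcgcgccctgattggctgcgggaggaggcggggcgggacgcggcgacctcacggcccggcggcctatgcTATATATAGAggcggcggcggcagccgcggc
HBEGF: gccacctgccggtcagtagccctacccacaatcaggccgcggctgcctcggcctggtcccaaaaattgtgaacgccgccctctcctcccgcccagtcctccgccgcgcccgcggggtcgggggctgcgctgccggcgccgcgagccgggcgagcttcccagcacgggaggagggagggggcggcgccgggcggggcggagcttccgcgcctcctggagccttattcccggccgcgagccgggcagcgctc
AREG: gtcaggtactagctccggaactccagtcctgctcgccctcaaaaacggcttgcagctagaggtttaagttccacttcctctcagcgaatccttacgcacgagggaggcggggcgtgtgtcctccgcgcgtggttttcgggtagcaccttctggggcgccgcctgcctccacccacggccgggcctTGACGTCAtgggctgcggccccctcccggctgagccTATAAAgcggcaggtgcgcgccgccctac
EREG: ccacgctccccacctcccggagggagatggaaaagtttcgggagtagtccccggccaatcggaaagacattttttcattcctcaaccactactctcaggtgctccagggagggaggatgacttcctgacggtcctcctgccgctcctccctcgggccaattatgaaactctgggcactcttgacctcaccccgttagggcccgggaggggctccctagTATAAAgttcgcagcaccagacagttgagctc

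The cAMP response element (CRE) was searched as TGACGTCA and the AP-1 site as TGANTCA. The antioxidant response element was searched as TGACNNNGC, whose matches can overlap those of AP-1. An ATF4 site was searched as TGATGNAA and a TATA-like box as TATANA. RefSeq windows of 300 bases, from 250 before to 50 after a gene start, were found for 9 of the 10 genes, 14 windows in all since EGFR, TGFA and LRIG1 have several starts. TGACGTCA was found only in the AREG window, beginning 65 bases before the gene start, and occurs in 1.85% of the 35116 windows of all genes. TATANA begins 31, 29 and 27 bases before the start of ERRFI1, 29 bases before that of AREG and 32 bases before that of EREG, was also found in a window of EGFR, and occurs in 19% of all windows. TGANTCA was found in 3 of the 14 windows, from EGFR, ERBB2 and LRIG1, against 7.71% of all windows. All matches of EGFR, to TGANTCA and to TATANA, lie in its window at chromosome 7, 55109589 to 55109888. The TGANTCA matches of LRIG1 lie in its window at chromosome 3, 66405718 to 66406017. Both windows are inside the gene, far from its outermost start in GENCODE, 55019021 for EGFR and 66501263 for LRIG1 on the minus strand. TGACNNNGC was found in 2 windows, both of LRIG1, against 13.3% of all windows. TGATGNAA was in none of the 14 windows and in 3.62% of all. The HBEGF window held none of the 5 motifs. These matches describe letters and not bound sites.

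Of the 10 genes, 8 rose and 1 fell with ILL at an adjusted p-value under 0.05 (edgeR's quasi-likelihood test, Benjamini-Hochberg adjustment over all tested genes), and LRIG1 did not pass. This count stands beside a wide response, since 73.1% of all tested genes passed, 36.2% higher and 36.9% lower. With the fold change cutoffs of the study's methods, above 2 or under 0.5, differentially expressed genes (DEGs) were ERRFI1, HBEGF, BTC and ERBB3, all 4 higher with ILL, and 0 were lower. Over all tested genes 23.9% were DEGs, 12.5% higher and 11.4% lower. CPM values of the groups did not overlap for 9 of the 10 genes, against 75.4% of all tested genes. The median log2 fold change was 0.55 over the 10 genes and -0.0012 over all tested genes. Since the list is short and was drawn up with earlier results of these data known, these shares describe it and carry no test.

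**Figure D1:**
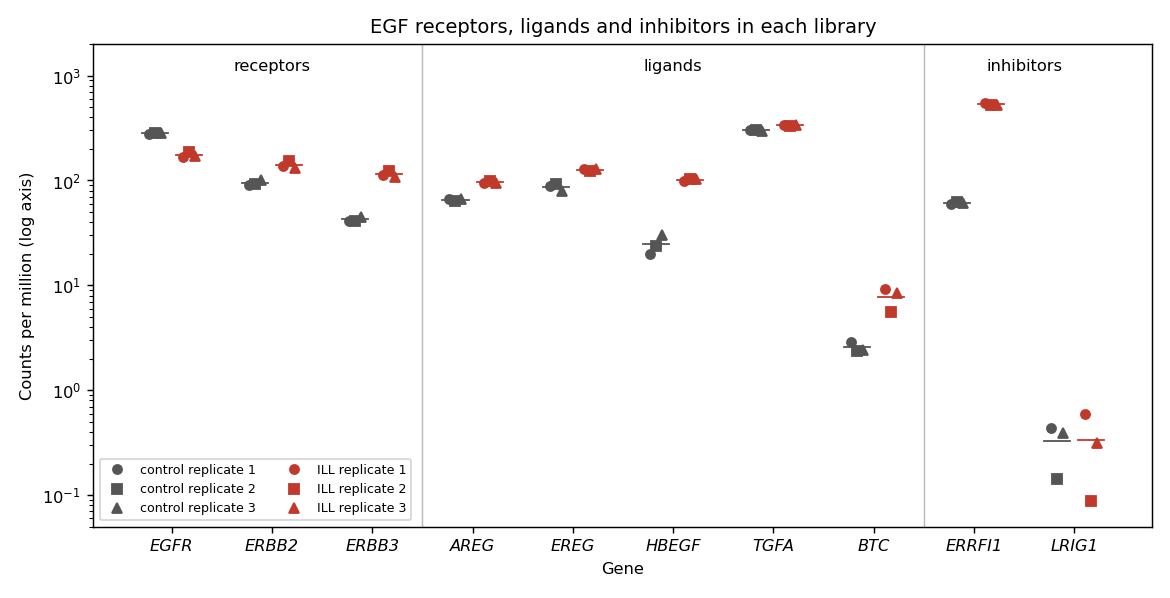
CPM (log axis) of each gene in each of the 6 libraries, with horizontal lines at group means, control in gray and ILL in red. The groups are apart for every gene but LRIG1, and the widest gap is in ERRFI1, from a mean of 60.8 in controls to 531 with ILL.

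Among the receptors, EGFR fell while ERBB2 and ERBB3 rose. EGFR (chromosome 7, 55019021 to 55211628, GENCODE release 29 on GRCh38, as for all genes below) is the receptor for all 5 ligands described here. It had 10841, 10063 and 10024 counts in control replicates 1 to 3 and 5882, 6405 and 5924 with ILL. Every ILL library was below every control library. The level was 283 ± 3.62 CPM (SD, n = 3) in controls and 174 ± 10.1 CPM (SD, n = 3) with ILL, or 61.7% of control, and the log2 fold change was -0.70 with a standard error (SE) of 0.05 (edgeR adjusted p = 1.34e-11). This was short of the 2-fold cutoff and ranked 2398th from the lowest of 13066 log2 fold changes.

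ERBB3 (chromosome 12, 56076799 to 56103505), which binds neuregulins and passes signals mainly to PI3K, showed the largest receptor change. Its counts were 1605, 1455 and 1597 in controls and 3951, 4279 and 3740 with ILL, so the lowest ILL library was above the highest control. The mean was 42.6 ± 2.19 CPM (SD, n = 3) in controls and 115 ± 8.83 CPM (SD, n = 3) with ILL, a 2.69-fold increase with a log2 fold change of 1.43 (SE 0.07, edgeR adjusted p = 8.44e-16).

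ERBB2 (chromosome 17, 39687914 to 39730426), the preferred partner of the other receptors and an amplified oncogene in some bile duct cancers, rose less. It had 3540, 3279 and 3596 counts in controls and 4830, 5257 and 4561 with ILL, again without overlap. The increase was 1.47-fold, a log2 fold change of 0.56 (SE 0.06, edgeR adjusted p = 1.84e-08). ERBB2 shares 571 annotated exonic bases with MIEN1 and 194 with PGAP3 on the opposite strand, which had log2 fold changes of 0.42 and 1.41. Whether the libraries kept strand is not given in the sources used here, so reads from the shared bases cannot be told apart. EGFR shares 186 exonic bases with EGFR-AS1 and ERRFI1 shares 155 with AL034417.4, both antisense genes without a row in the count table. ERBB3 shares 31 with AC034102.2, a protein-coding gene on the same strand that also has no row there.

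All 5 ligand genes rose at an adjusted p under 0.05, where 36.2% of all tested genes passed and were higher. The sizes ranged from 1.12-fold to 4.13-fold. HBEGF (chromosome 5, 140332843 to 140346631) encodes heparin-binding EGF-like growth factor, which binds EGFR and ERBB4. It had 771, 842 and 1072 counts in controls and 3447, 3588 and 3606 with ILL. The controls were more spread than the ILL libraries, and even the highest control was far below the lowest ILL library. HBEGF averaged 24.7 ± 5.27 CPM (SD, n = 3) in controls and 102 ± 3.07 CPM (SD, n = 3) with ILL. The log2 fold change was 2.05 (SE 0.09, edgeR adjusted p = 8.94e-16), the 462nd highest of all tested genes. Its log2 fold change lay between 1.90 and 2.22 when each library was left out in turn.

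BTC (chromosome 4, 74744759 to 74794686), betacellulin, had the lowest level of the ligands and rose 3.05-fold. Its counts were 112, 84 and 85 in controls and 325, 193 and 299 with ILL. ILL replicate 2 was lower than the other ILL libraries and still above all controls. The log2 fold change was 1.61 (SE 0.20, edgeR adjusted p = 1.34e-07) and stayed between 1.47 and 1.80 without any 1 library. With limma on log2 of FPKM plus 1, where the added 1 exceeds the control level of BTC, it was 0.77 and BTC was no DEG.

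AREG and EREG, which encode amphiregulin and epiregulin, lie on chromosome 4 with starts 80.0 kb apart (AREG 74445134 to 74455009, EREG 74365143 to 74388751), and the BTC gene lies beyond AREG. AREG had 2567, 2254 and 2371 counts in controls and 3293, 3405 and 3341 with ILL, a 1.46-fold increase (log2 fold change 0.55, SE 0.06, edgeR adjusted p = 4.94e-09). EREG had 3409, 3246 and 2818 counts in controls and 4477, 4223 and 4464 with ILL, also a 1.46-fold increase (log2 fold change 0.54, SE 0.06, edgeR adjusted p = 1.29e-08). In both genes the groups did not overlap, and the values of both genes were closer to each other than their standard errors, while BTC rose by more. Of their promoter windows shown above, both hold a TATANA match at a like distance from the start and the AREG window alone holds the CRE letters.

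TGFA (chromosome 2, 70447280 to 70554193), transforming growth factor alpha, had the highest ligand level in controls and the smallest ligand change. It had 11756, 10559 and 10543 counts in controls and 11899, 11360 and 11851 with ILL, and these raw counts overlap. After TMM scaling the level was 300.5 ± 2.31 CPM (SD, n = 3) in controls and 336 ± 5.41 CPM (SD, n = 3) with ILL, without overlap. The log2 fold change was 0.16 (SE 0.05, edgeR adjusted p = 0.00381). It depended on that scaling, since with library size only it was 0.09 and did not pass (adjusted p = 0.0801 from edgeR).

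The inhibitors moved apart. ERRFI1 (chromosome 1, 8004404 to 8026308) encodes MIG6, a cytoplasmic protein that binds the kinase domains of the EGF receptor family, blocks their activation and is itself induced by receptor signaling and by stress. ERRFI1 had 2310, 2191 and 2141 counts in controls and 19118, 18078 and 18239 with ILL. All ILL libraries were far above all controls, and the spread within each group was small. The level was 60.8 ± 1.45 CPM (SD, n = 3) in controls and 531 ± 13.2 CPM (SD, n = 3) with ILL, 8.73-fold higher. The log2 fold change was 3.13 (SE 0.05, edgeR adjusted p = 1.01e-23), the 137th highest of 13066 genes and the largest of the 10. Leaving out any 1 library gave 3.11 to 3.14.

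LRIG1 (chromosome 3, 66378797 to 66501263) encodes a membrane protein that promotes the degradation of EGF receptors. It was close to the detection limit, with 17, 5 and 14 counts in controls and 21, 3 and 11 with ILL, and the groups overlapped fully. The log2 fold change of 0.03 had a standard error of 0.67 (adjusted p = 0.969 from edgeR), and a 2-fold change in either direction, which lies within 2 standard errors, was not detectable at this depth. Without control replicate 2 it was -0.32 and without ILL replicate 1 it was -0.69. LRIG1 also shares 907 exonic bases with SLC25A26 on the opposite strand, whose log2 fold change was -0.46.

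**Figure D2:**
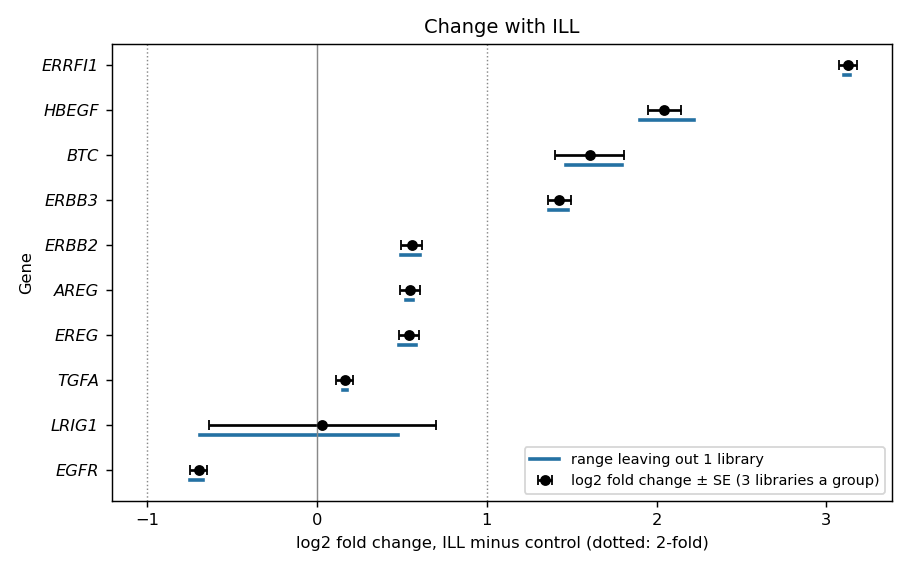
Log2 fold change of each gene, ILL minus control, with its standard error from edgeR (3 libraries per group, black) and the range of values when each library was left out in turn (blue), with dotted lines at 2-fold. ERRFI1, HBEGF, BTC and ERBB3 lie beyond the 2-fold line, EGFR is the only gene below 0 with its range apart from 0, and the range of LRIG1 spans 0.

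Levels of different genes were compared in FPKM, which divides by gene length. In controls, TGFA was highest at 70.3 ± 0.866 FPKM (SD, n = 3), followed by AREG at 54.6 ± 1.13, EGFR at 26.7 ± 0.306, EREG at 19.2 ± 1.49 and ERBB2 at 16.3 ± 0.871 FPKM (SD, n = 3 each). HBEGF at 10.7 ± 2.24 and ERRFI1 at 9.14 ± 0.213 FPKM came next and overlapped each other, then ERBB3 at 7.70 ± 0.360 and BTC at 0.612 ± 0.0697 FPKM. LRIG1 was last at 0.0595 ± 0.0293 FPKM. Apart from HBEGF and ERRFI1, no neighbors in this order overlapped between their 3 libraries.

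With ILL the order was different at its top and in the receptors. ERRFI1 moved from position 7 to the top at 76.1 ± 2.29 FPKM (SD, n = 3), overlapping AREG at 76.1 ± 1.52 FPKM, which in turn overlapped TGFA at 74.9 ± 1.63 FPKM. HBEGF followed at 42.2 ± 1.03 and EREG at 26.7 ± 0.766 FPKM. ERBB2 at 22.8 ± 1.75 and ERBB3 at 19.7 ± 1.44 FPKM overlapped each other and were both above EGFR at 15.7 ± 0.816 FPKM, which had been the highest receptor in controls and was now the lowest. BTC at 1.78 ± 0.453 and LRIG1 at 0.0584 ± 0.0452 FPKM remained the lowest.

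The receptor mixture is easiest to see within a library, where library scaling cancels. EGFR made up 53.3%, 53.6% and 51.2% of the summed FPKM of the 3 receptor genes in control replicates 1 to 3, and 26.5%, 26.6% and 27.7% with ILL. ERBB3 made up 15.2% ± 0.393 (SD, n = 3) in controls and 33.9% ± 0.283 (SD, n = 3) with ILL. The ratio of EGFR to ERBB3 was thus 3.47 ± 0.173 (SD, n = 3) in controls and 0.795 ± 0.0275 (SD, n = 3) with ILL. The ratio of EGFR to ERBB2 was 1.64 ± 0.0888 and 0.688 ± 0.0258. For these ratios and receptor shares, the libraries of the groups did not overlap. The summed receptor level was 50.6 ± 1.22 FPKM (SD, n = 3) in controls and 58.2 ± 3.95 FPKM (SD, n = 3) with ILL.

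For the ligands, the summed level was 155 ± 0.510 FPKM (SD, n = 3) in controls and 222 ± 0.969 FPKM (SD, n = 3) with ILL. HBEGF made up 5.58%, 6.71% and 8.40% of it in controls and 18.5%, 19.4% and 19.2% with ILL. TGFA made up 45.2% ± 0.693 (SD, n = 3) in controls and 33.8% ± 0.663 with ILL, while AREG made up 35.1% ± 0.668 and 34.3% ± 0.782 and its libraries overlapped between groups. The ratio of TGFA to HBEGF was 6.75 ± 1.46 in controls and 1.78 ± 0.0773 with ILL. These shares describe RNA, and neither released ligand nor receptor at the cell surface was measured here. In bulk RNA, a change in the share of cells that make a transcript and a change per cell cannot be told apart.

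The other receptor and ligand genes of the family were mostly at low counts. NRG1, which encodes neuregulin 1, a ligand of ERBB3 and ERBB4, was the exception, with 10388, 9801 and 9805 counts in controls and 3753, 3803 and 3942 with ILL. All ILL libraries were below all controls, and the mean was 275 ± 6.16 CPM (SD, n = 3) in controls against 110.1 ± 2.78 CPM (SD, n = 3) with ILL. The log2 fold change of NRG1 was -1.32 (SE 0.05, edgeR adjusted p = 2.95e-17). Of the 7 genes of this list, 3 were tested, and NRG2 and NRG4 did not pass, with log2 fold changes of 0.21 and 0.79 (standard errors 0.63 and 0.59). The other 4 were left out for low counts. ERBB4 had 10, 9 and 10 counts in controls and 0, 2 and 1 with ILL, and it became a second lower DEG without the filter (adjusted p = 0.0263 from edgeR) and with DESeq2's Wald test (adjusted p = 0.0236). EGF had 0, 3 and 2 counts in controls and 9, 9 and 4 with ILL, EPGN at most 8 counts in any library and NRG3 at most 2.

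Of 10 genes for ligand release, 6 rose, 3 fell and ADAM10 did not pass, with a median log2 fold change of 0.48. Thus 90% passed against 73.1% of all tested genes, and 30% were DEGs against 23.9%. ADAM17, the main protease that sheds AREG, EREG, HBEGF and TGFA, had 1431, 1231 and 1098 counts in controls and 2864, 2719 and 2642 with ILL. All ILL libraries were higher, a 2.29-fold increase (log2 fold change 1.20, SE 0.07, edgeR adjusted p = 8.6e-14). TIMP3, which inhibits ADAM17, rose too and by more, from 106 ± 5.74 CPM to 432 ± 7.86 CPM (SD, n = 3 each), with a log2 fold change of 2.02 (SE 0.05, edgeR adjusted p = 1.69e-20). RHBDF1, RHBDF2 and FRMD8, which help ADAM17 to mature or reach the surface, were named after their values were seen. They rose with log2 fold changes of 0.88, 0.78 and 0.86. ADAM15, also in this list, fell by 0.68 on the log2 scale (SE 0.05, edgeR adjusted p = 9.79e-12). The lower DEG was ADAM12, named after its values were seen, with 40, 13 and 29 counts in controls and 8, 2 and 0 with ILL (log2 fold change -2.91, SE 0.74, edgeR adjusted p = 0.00115). Without ILL replicate 1 it was -4.53, and ADAM12 was not tested where every library had to hold at least 10 counts or with limma. ADAM19 fell by 0.97 on the log2 scale and became a second lower DEG without control replicate 1 (-1.08), without ILL replicate 1 (-1.09) and with library size only (-1.04).

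Of 19 genes for receptor down-regulation and its control, 9 rose, 7 fell and 3 did not pass, with a median log2 fold change of 0.07. Thus 84.2% passed against 73.1% of all tested genes, and 21.1% were DEGs against 23.9%, so the shares lie near the background. The list was not divided by whether a gene promotes or opposes down-regulation. A rise or fall in it therefore gives no direction for the process. The higher DEGs were CBLB and CBLC, ubiquitin ligases of the family that marks activated EGF receptors for degradation, and SH3KBP1, which encodes CIN85, an adaptor that links CBL proteins to endocytosis. CBLB had 315, 347 and 357 counts in controls and 1324, 1182 and 1175 with ILL, a log2 fold change of 1.91 (SE 0.10, edgeR adjusted p = 7.08e-15). CBLC rose 3.01-fold, from 65.0 ± 4.48 CPM to 196 ± 7.27 CPM, and SH3KBP1 rose 2.90-fold, from 176 ± 8.60 CPM to 510.2 ± 12.8 CPM (SD, n = 3 each). CBL itself, the founding member of that ligase family, fell by 0.22 on the log2 scale. The lower DEG was LRIG3, a relative of LRIG1, which had 218, 155 and 184 counts in controls and 61, 78 and 72 with ILL, a log2 fold change of -1.33 (SE 0.22, edgeR adjusted p = 1.06e-05). UBASH3B, named after its values were seen, fell by 0.96 and became a second lower DEG without control replicate 3 (-1.02), without ILL replicate 2 (-1.06) and with library size only (-1.03).

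Of 28 genes for adaptors and the first signaling proteins, 17 rose, 5 fell and 6 did not pass, with a median log2 fold change of 0.21. The 78.6% that passed compare with 73.1% of all tested genes, while 0 were DEGs against 23.9%. Named after their values were seen, the gene with the largest rise was SOS2, an activator of RAS, with a log2 fold change of 0.94 (SE 0.06, edgeR adjusted p = 1.19e-12) and the gene with the largest fall was PLCG1, a phospholipase that docks on EGFR, with -0.65.

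Of 15 genes that ERK signaling is known to induce, 7 rose, 4 fell and 4 did not pass, with a median log2 fold change of 0.14. The 73.3% that passed and the 26.7% that were DEGs are close to the 73.1% and 23.9% of all tested genes, and the counts say nothing particular about this list. EGR1, an immediate-early transcription factor, had 90, 138 and 115 counts in controls and 339, 428 and 485 with ILL, a log2 fold change of 1.93 (SE 0.18, edgeR adjusted p = 7.05e-10). DUSP5, a nuclear phosphatase of ERK, rose 2.57-fold, and PHLDA1 rose 2.05-fold. With limma on log2 of FPKM plus 1 the value of EGR1 was 1.22. PHLDA1 was at the 2-fold cutoff, and was no DEG with library size only (0.97) or with limma (0.95 and 0.97). In contrast, FOSL1, an AP-1 subunit, had 8273, 7693 and 8022 counts in controls and 3415, 3379 and 3444 with ILL, and fell by 1.16 (SE 0.05, edgeR adjusted p = 5.11e-16). DUSP6, a cytoplasmic phosphatase of ERK, did not pass, with a log2 fold change of -0.15 (SE 0.07, edgeR adjusted p = 0.0622). The genes of this list thus moved in both directions.

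The profiles most like that of ERRFI1 over the 6 libraries were those of ARG2, SYT7 and CREB5, with root mean square differences of 0.04, 0.06 and 0.07 on the log2 scale after each gene was centered on its control mean. For EGFR they were MRPS15, CPSF6 and NCLN, each with a difference of 0.03. ARG2 rose with a log2 fold change of 3.17 and MRPS15 fell by 0.71. In a series with a single contrast this likeness is mainly one of fold change.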

How the data were processed

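RNA of HCCC9810 cells was extracted with TRIzol and sequenced as mRNA libraries in 6 samples, 3 per group, which were grouped by sample titles. Whole-number counts, not normalized, and FPKM values were deposited by the authors in a table each, keyed by symbol, where every library has a column. Per the labels, the submitters' processing notes name GRCh38 and DESeq2, while the aligner, counting program and annotation are not given in the sources used here. Deposited FPKM values equal the count divided by a gene length and the library total, within 0.1% for 100% of 88055 values above 0. The length of each gene was derived from these same counts and FPKM values and was not compared with an annotated length.

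The members and gene lists were chosen with earlier results of these data known. Counts were filtered with filterByExpr, scaled by TMM (factors 0.970 to 1.03) and tested with edgeR 4.0.16 (R 4.3.3) by the quasi-likelihood test, with Benjamini-Hochberg adjustment over 13066 genes, and the biological coefficient of variation was 0.0717. Standard errors are the absolute log2 fold change divided by the square root of F. DEGs were genes that changed more than 2-fold either way at an adjusted p under 0.05. The fit was tested on simulated data. The rule for named genes took the 10 members and up to 3 DEGs per direction and list. Such DEGs averaged 1 CPM or more, and their groups did not overlap. The rule also took the 3 genes with profiles nearest to the member that rose most and the member that fell most, on log2(CPM + 0.5). Other genes of the lists, such as RHBDF1, RHBDF2, FRMD8, ADAM15, ADAM19, CBL and DUSP6, were named with their values known. Promoters came from RefSeq and gene positions from GENCODE release 29. Alternatives were other scalings and filters, DESeq2 1.42.0, a replicate block, leaving out each library, and limma 3.58.1 on log2 of FPKM plus 1 or 0.1 for genes with a mean of at least 1 FPKM. Pairs of libraries within a group were not the same library deposited again, since chi-square divided by its degrees of freedom was 5.15 to 11.8. Total counts per library were 34282764 to 37758569, and neither table holds columns of fold changes or p-values. The value of 1 marker gene is not reported here.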

Additional observations from a re-analysis of the deposited data

How the results depend on the processing

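Of the 10 fold changes, 8 had the same sign and the same call at the 0.05 level under each of 14 alternatives. TGFA did not pass with library size only (log2 fold change 0.0932, adjusted p = 0.0801 from edgeR) or with limma on log2 of FPKM plus 1 (0.0918, adjusted p = 0.124) or plus 0.1 (0.0929, adjusted p = 0.131). These alternatives moved the median of all genes from -0.0012 to -0.0702, -0.0862 and -0.101, and both limma fits moved the share of DEGs that were higher with ILL from 52.4% to 42.0% and 42.2%. LRIG1, which passed in none, changed sign with library size only (-0.0344) and with the replicate block (-0.0592), and lay between -0.69 and 0.48 without 1 library. With limma on FPKM, LRIG1 was not tested. The members' DEG count was 4 higher and 0 lower without any 1 library, and 3 to 4 higher in all alternatives, where 3 came with limma on log2 of FPKM plus 1, which left out BTC. Higher DEGs of the ERK list went from 3 to 2 with library size only and with limma, through PHLDA1. The number of lower DEGs for the other receptors and ligands went from 1 to 2 without the filter and with DESeq2, through ERBB4. For ligand release it went from 1 to 2 with library size only and to 0 with at least 10 counts in every library or with limma, and was 1 to 2 without 1 library. For receptor down-regulation it went from 1 to 2 with library size only and to 0 with limma, and was 1 to 2 without 1 library. LRIG3 and UBASH3B were not tested with limma, and LRIG3 was a DEG in each alternative that tested it. The labels do not say whether same-numbered libraries were paired. Deviations of same-numbered libraries from their group means correlated at 0.0012, -0.015 and -0.043. For pairs with different numbers the correlations were -0.039 to 0.050. Values this small in both kinds of pair cannot tell whether the cultures were paired. With the replicate block 9437 in place of 9547 genes passed, and all members kept their call, with LRIG1 still not passing. Depth limits LRIG1, ERBB4, EGF, EPGN and NRG3, with at most 21 counts in any library.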
